A study of Mus musculus with 96 samples.

Results

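The 10 circadian clock genes Nr1d1, Nr1d2, Per1, Per2, Per3, Cry1, Dbp, Tef, Ciart and Noct were chosen by name and read from the mouse Clariom S array, where each was covered by 1 transcript cluster, among 19505 genes in all. Expression was measured in the liver, the gonadal adipose tissue, the pancreas and the striatum of 24 C57BL/6JOlaHsd mice, which gave 96 arrays. The groups were olanzapine at 3.5 mg/kg, risperidone at 1 mg/kg and vehicle (saline with DMSO and Tween 20), given daily under the skin for 28 days, and each held 8 mice, 4 females and 4 males. All mice were of this strain, kept under a light and dark cycle on standard chow, and killed shortly after the last injection. The hour of the day at death was not given in the sources used here. Levels are log2 values after robust multichip analysis (RMA), differences between groups are log2 fold changes, and adjusted p-values come from limma fits of treatment and sex, corrected by Benjamini-Hochberg across the 19505 genes of each tissue. Genes with an adjusted p under 0.05 were counted as called. Because the drugs were given at different doses, a difference between olanzapine and risperidone is one between these treatments. Median array levels spanned 6.12 to 6.29 for livers, 7.41 to 7.65 for adipose samples, 6.69 to 6.90 for pancreases and 7.66 to 7.74 for striata. Each array's median correlation with others of its tissue was 0.971 or more in the liver and striatum, 0.797 to 0.954 in the adipose tissue and 0.647 to 0.847 in the pancreas, so the pancreas samples were the least alike.

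The circadian clock is a transcriptional feedback loop that runs in nearly every cell. The activators CLOCK, NPAS2 and BMAL1 (encoded by Arntl) bind E-box sequences and switch on the Per and Cry genes, whose proteins return to block their own activators. NR1D1 and NR1D2 (REV-ERB alpha and beta) repress Arntl in a second loop, CIART is a further repressor of the activator pair, and DBP and TEF are PAR-bZIP factors that bind D-box sequences in output genes and in Per genes. Noct encodes nocturnin, a rhythmic enzyme linked to lipid handling in the liver. Transcripts of these genes rise and fall over the day, and Per1 and Per2 also answer quickly to glucocorticoids and to neuronal activity.

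The promoter sequences of the members that moved together are shown first, because Ciart, Per1, Tef and Dbp were lower together in the striatum, as was Per2, which had no window, and because Per3 followed Dbp across livers. They are the 250 bases before the annotated start in RefSeq (GRCm38.p6), printed on the gene's strand, with E-boxes (CACGTG) and D-boxes (TTATGTAA) in capitals. The positions are chr3:95882229-95882478 on the reverse strand for Ciart, chr11:69098699-69098948 on the forward strand for Per1, chr15:81802423-81802672 on the forward strand for Tef, chr4:151044666-151044915 on the reverse strand for Per3 and chr7:45704997-45705246 on the forward strand for Dbp.
Ciart: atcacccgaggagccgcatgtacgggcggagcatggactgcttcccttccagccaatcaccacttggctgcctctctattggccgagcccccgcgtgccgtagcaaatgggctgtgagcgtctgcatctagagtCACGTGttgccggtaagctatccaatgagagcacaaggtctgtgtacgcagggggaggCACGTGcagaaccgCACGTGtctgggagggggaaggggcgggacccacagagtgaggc
Per1: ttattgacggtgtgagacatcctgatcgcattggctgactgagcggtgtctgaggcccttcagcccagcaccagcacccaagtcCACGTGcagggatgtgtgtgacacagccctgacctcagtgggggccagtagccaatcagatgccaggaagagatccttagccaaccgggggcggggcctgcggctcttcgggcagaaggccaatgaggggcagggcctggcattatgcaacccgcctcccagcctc
Tef: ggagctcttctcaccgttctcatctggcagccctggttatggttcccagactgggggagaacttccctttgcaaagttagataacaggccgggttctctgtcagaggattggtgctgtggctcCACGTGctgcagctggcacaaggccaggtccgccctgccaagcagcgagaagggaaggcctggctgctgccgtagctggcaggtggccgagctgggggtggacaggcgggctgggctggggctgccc
Per3: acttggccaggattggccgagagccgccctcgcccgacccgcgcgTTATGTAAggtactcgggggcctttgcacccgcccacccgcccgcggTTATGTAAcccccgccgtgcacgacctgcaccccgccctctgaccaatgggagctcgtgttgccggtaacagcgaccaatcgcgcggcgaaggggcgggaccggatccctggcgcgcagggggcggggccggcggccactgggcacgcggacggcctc
Dbp: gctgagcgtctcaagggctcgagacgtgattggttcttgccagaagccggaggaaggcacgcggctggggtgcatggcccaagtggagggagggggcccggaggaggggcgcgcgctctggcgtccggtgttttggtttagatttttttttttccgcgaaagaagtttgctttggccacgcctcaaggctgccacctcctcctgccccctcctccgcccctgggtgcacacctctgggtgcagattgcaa
Of the 10 members, 9 had a window in the table, and Per1 and Tef had a second start. An E-box was found in 4 members (Ciart, Cry1, Per1 and Tef), against 6.02% of 32851 mouse windows. Ciart held 3 E-boxes, at 116, 58 and 44 bases before its start, Per1 held 1 at 166 bases, Tef 1 at 127 bases and Cry1 1 at 60 bases. Before the second starts, Tef held 1 E-box at 138 bases and Per1 held 0. Per3 was the member with a D-box, at 205 and 158 bases before its start, a motif found in 0.819% of windows. The cAMP response element TGACGTCA was searched as well and was found in 0 members and in 1.55% of windows. Both strands were searched for these exact letters only, so other spellings of a motif were not counted. No motif overlapped another in the windows shown, and a match describes letters, not binding. The window of Dbp held 0 E-boxes, and sequence outside these 250 bases was not searched. Whether motifs go with the drug differences, or with the relation of Per3 to Dbp, was not tested.

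In the striatum, 5 of the 10 members were lower in the olanzapine-treated mice than in the risperidone-treated mice, where 4.86% of all genes were called (948 of 19505, 391 of them lower). These were Per1 and Per2, which hold back the activators, Ciart, the further repressor, and the PAR-bZIP factors Tef and Dbp. All 10 members had a negative log2 fold change, with a median of -0.55, against a median of -0.0075 over all genes, of which 51.4% were negative. Per2 and Ciart did not overlap between the groups: each of the 8 olanzapine-treated mice lay below each of the 8 risperidone-treated mice, which held for 0.292% of genes.

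Per1 levels in the striatum (lowest, median and highest) were 9.20, 9.50 and 9.84 under olanzapine, 9.80, 10.225 and 10.57 under risperidone, and 9.59, 9.74 and 10.37 under vehicle. Per2 levels were 7.49, 8.355 and 8.62 under olanzapine, 8.69, 8.955 and 9.45 under risperidone, and 7.97, 8.85 and 9.40 under vehicle. For both genes the vehicle-treated mice overlapped both drug groups. Compared with risperidone, Per1 fell by 0.72 (standard error 0.123, limma adjusted p = 0.0103) and Per2 by 0.80 (standard error 0.157, limma adjusted p = 0.0103).

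Ciart levels were 9.19, 9.535 and 9.75 under olanzapine, 9.84, 10.31 and 10.85 under risperidone, and 9.00, 10.40 and 10.96 under vehicle, so that 1 vehicle-treated mouse lay below every drug-treated mouse. Ciart fell by 0.84 against risperidone (standard error 0.171, limma adjusted p = 0.0109). Tef levels were 5.38, 5.715 and 6.33 under olanzapine, 6.16, 6.57 and 6.71 under risperidone, and 5.44, 5.96 and 6.56 under vehicle. Here 7 of 8 olanzapine-treated mice were below every risperidone-treated mouse, and Tef fell by 0.76 (standard error 0.159, limma adjusted p = 0.0115). Dbp, whose levels were 16.39, 16.51 and 17.08 under olanzapine, 16.60, 17.25 and 17.40 under risperidone, and 16.47, 17.04 and 17.34 under vehicle, fell by 0.53 (standard error 0.140, limma adjusted p = 0.0268). The Dbp groups overlapped, with risperidone F23 far below the rest of its group. The calls of Per1, Per2, Ciart and Tef were kept without any 1 of the 16 mice compared. That of Dbp was lost without olanzapine F26, F9, M25 or M26 or risperidone F4, F6, M24 or M4 (-0.53 to -0.50 in these fits, adjusted p up to 0.0658) and without olanzapine F26 and M9 together, the striatal samples least like the rest (-0.46, limma adjusted p = 0.0653, 4 members called).

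**Figure D1:**
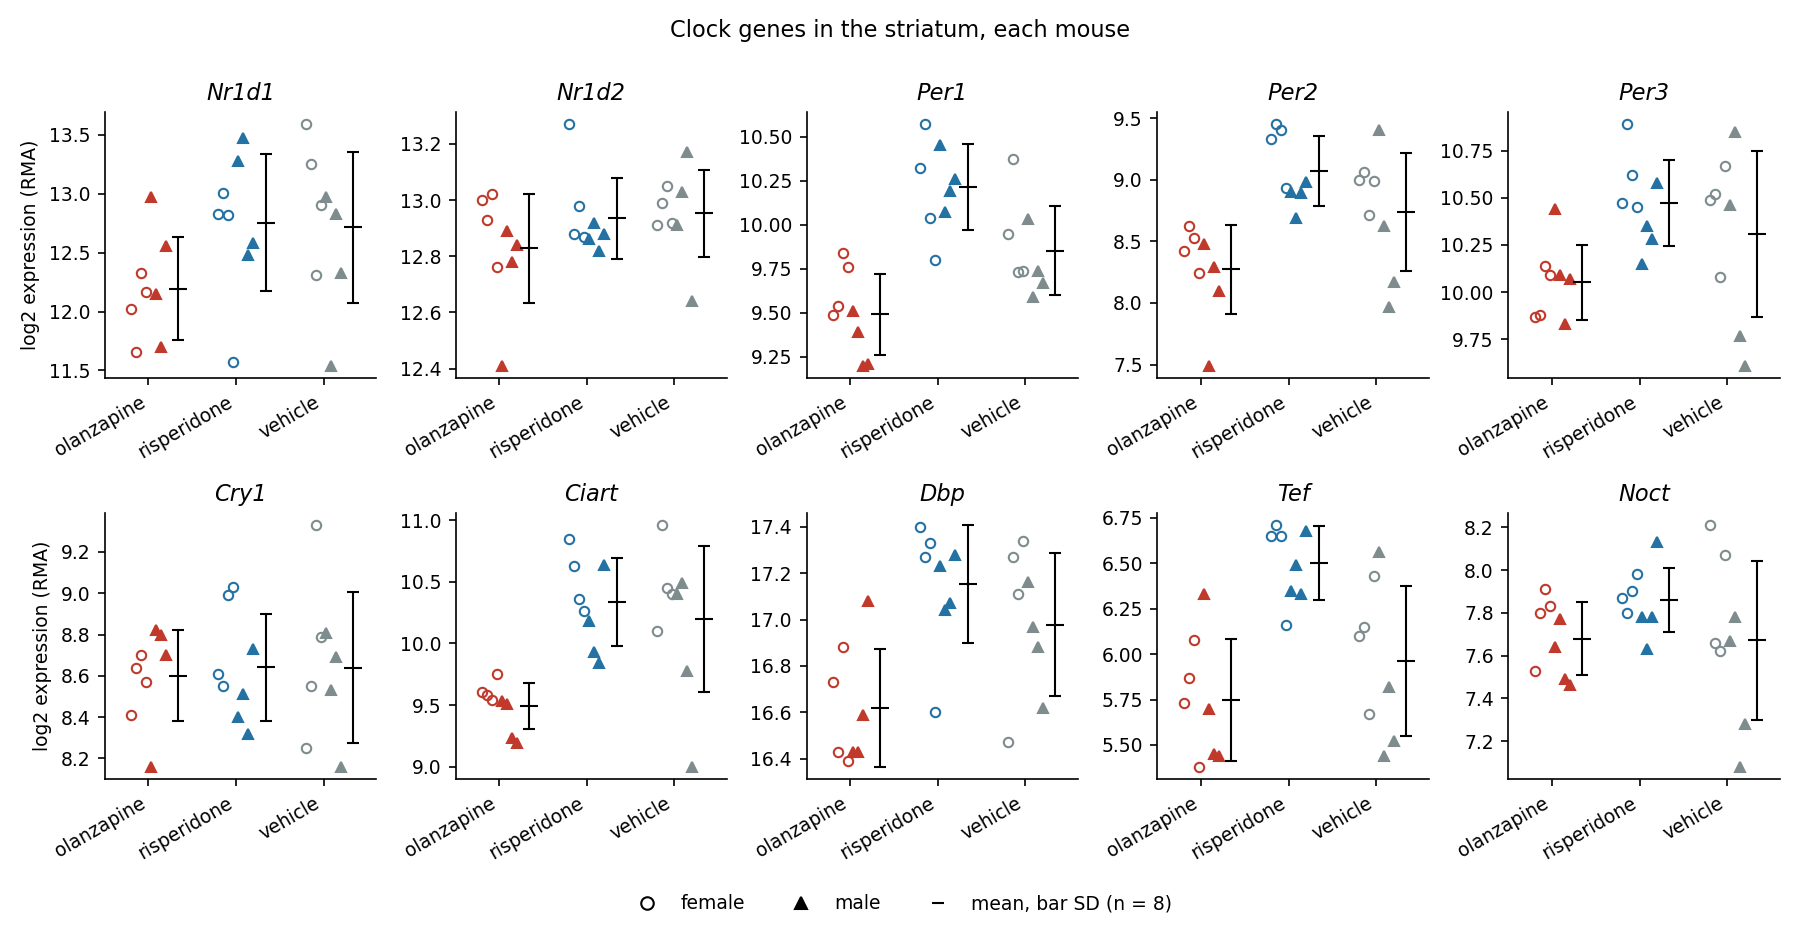
Log2 expression of the 10 clock genes in the striatum, 1 point per mouse (circles females, triangles males), with the mean and SD of 8 mice beside each group on the x axis. The olanzapine and risperidone points of Per2 and Ciart do not overlap, while the vehicle points span most of both groups.

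The remaining members did not pass. Per3, the Per gene least tied to the core loop, had a log2 fold change of -0.42 (limma adjusted p = 0.104) with 7 of 8 olanzapine-treated mice below every risperidone-treated mouse and passed without olanzapine M9 (-0.49, adjusted p = 0.0351), and Nr1d1 had one of -0.56 (limma adjusted p = 0.226). Noct, Nr1d2 and the repressor Cry1 had log2 fold changes of -0.18, -0.11 and -0.04. Levels of Nr1d1 were 11.66, 12.16 and 12.97 under olanzapine, 11.57, 12.825 and 13.47 under risperidone, and 11.54, 12.865 and 13.59 under vehicle, with full overlap of the groups.

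Against vehicle, 0 members were called in the striatum under either drug by limma, as were 0% of all genes. At an unadjusted p under 0.05 there were 4 members (of 2057 genes) under olanzapine and 3 members (of 1053 genes) under risperidone. Under olanzapine the log2 fold changes were -0.71 for Ciart (standard error 0.171, limma adjusted p = 0.226), -0.47 for Per2, -0.36 for Per1 and -0.36 for Dbp. Ciart was called without olanzapine M9 (-0.74, limma adjusted p = 0.0432) or vehicle M21 (-0.85, limma adjusted p = 0.0496). Under risperidone they were 0.54 for Tef (standard error 0.159, limma adjusted p = 0.821), 0.36 for Per1 and 0.33 for Per2. Both comparisons use the same vehicle-treated mice.

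Other measures moved with the olanzapine and risperidone groups in the striatum. All 4 measured markers of striatal projection neurons, the output neurons of this region, were lower under olanzapine (Drd1 -1.57, Drd2 -1.59, Ppp1r1b -1.75, Rgs9 -1.56, limma adjusted p from 0.0121 to 0.0355), and their mean level ranged from 10.89 to 14.21 under olanzapine, 14.17 to 15.51 under risperidone and 12.97 to 15.46 under vehicle. Of 5 thalamus markers 1 rose (Calb2, 5.09), and their mean level ranged from 8.25 to 13.7 under olanzapine, 8.22 to 12.4 under risperidone and 7.97 to 13.2 under vehicle. Of 5 choroid plexus markers 2 fell (Folr1 -1.87, Clic6 -1.08; mean level 6.90 to 8.86 under olanzapine, 7.09 to 11.0 under risperidone and 6.89 to 9.88 under vehicle), and of 4 cortex markers 1 fell (Nrgn -2.13; 10.1 to 15.0 under olanzapine, 11.9 to 14.9 under risperidone and 10.3 to 15.3 under vehicle). Under olanzapine, risperidone and vehicle, the medians of these mean levels were 12.9, 9.24 and 10.6 for thalamus markers. They were 7.39, 9.77 and 7.25 for choroid plexus markers, 11.7, 13.3 and 12.5 for cortex markers and 13.5, 15.1 and 14.3 for projection neuron markers. Marker levels thus differed between the olanzapine and risperidone groups, with ranges that overlapped. Whether the regions sampled differed was not tested. With the mean of the projection neuron markers as a covariate, chosen after seeing the data, 0 of 19505 genes and 0 members were called. This covariate itself differed between the olanzapine and risperidone groups, whose ranges barely overlapped. The fit therefore cannot separate treatment from the markers, and the loss of calls does not give a cause. The log2 fold changes were then -0.78 for Ciart (limma adjusted p = 0.824), -0.68 for Per1, -0.55 for Per2, -0.37 for Tef and -0.20 for Dbp. In a bulk sample, fewer cells of a type and less RNA per cell cannot be told apart, and the part of the sampled cells in the clock gene differences was not tested further.

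Genes that respond to activity and to glucocorticoids, the fast inputs to Per1 and Per2, also differed between olanzapine and risperidone in the striatum. Of 10 immediate early genes 5 were lower under olanzapine than under risperidone (Egr1 -1.49, Arc -1.10, Egr2 -1.06, Nr4a1 -0.93, Junb -0.76; median of the list -0.79). Their mean level ranged from 8.21 to 8.82 under olanzapine, 8.80 to 9.59 under risperidone and 7.90 to 9.35 under vehicle, with medians of 8.43, 9.09 and 8.49. Of 11 glucocorticoid targets 4 were lower under olanzapine than under risperidone (Sgk1 -0.93, Klf9 -0.85, Errfi1 -0.52, Pdk4 -0.37; median -0.52). The medians of their mean level were 11.40, 11.83 and 11.46 in the same order. In both lists the olanzapine median lay near that of vehicle, and the risperidone median was the highest. The part of either list in the differences of the clock genes was not tested. Of the other clock genes, 0 of 5 activators, 0 of 5 further repressors and PAR factors and 0 of 5 kinases and ubiquitin ligases were called by limma, with Npas2, the neuronal partner of BMAL1, nearest (-0.76, adjusted p = 0.0572). At an unadjusted p under 0.05 these lists held 3, 0 and 1 genes, where 19.1% of all genes and 7 of the 10 members passed that cut. Of 7 clock outputs, Upp2, a uridine phosphorylase, rose by 1.23 (standard error 0.212, limma adjusted p = 0.0103).

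In the liver, Noct was lower under olanzapine than under vehicle and under risperidone, and Nr1d1 was higher under olanzapine than under risperidone. Noct levels were 6.45, 7.295 and 7.91 under olanzapine, 8.15, 8.76 and 10.19 under risperidone, and 7.81, 8.805 and 10.13 under vehicle. All olanzapine-treated mice lay below all risperidone-treated mice, which held for 4 genes or 0.0205%, and 7 of 8 lay below every vehicle-treated mouse. The log2 fold change was -1.64 against vehicle (standard error 0.304, limma adjusted p = 0.0491), where 1 member and 0.0205% of genes were called, and -1.69 against risperidone (standard error 0.304, limma adjusted p = 0.0205), where 2 members and 0.0564% of genes were called. Risperidone and vehicle overlapped in full (log2 fold change 0.05). The call against vehicle was lost without any 1 of 11 mice (log2 fold changes from -1.78 to -1.41 and adjusted p from 0.0234 to 0.179 over all 16) and kept without olanzapine M25 or vehicle F1, F21, M1 or M3. The call against risperidone was lost without olanzapine F25 or M26 or risperidone F6 or M23 (-1.80 to -1.54 over the 16 mice left out, adjusted p up to 0.0736).

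Nr1d1 levels in the liver were 10.06, 10.83 and 11.26 under olanzapine, 6.46, 8.355 and 10.66 under risperidone, and 9.06, 10.35 and 11.49 under vehicle. The risperidone-treated group was both lower and wider, with 5 of 8 mice below every vehicle-treated mouse and 6 of 8 olanzapine-treated mice above every risperidone-treated mouse. Nr1d1 was 2.07 higher under olanzapine than under risperidone (standard error 0.412, limma adjusted p = 0.0475). Against vehicle its log2 fold changes did not pass, being 0.52 under olanzapine and -1.55 under risperidone (standard error 0.412, limma adjusted p = 0.292), where 0 members and 0.041% of genes were called, with 1 member and 1053 genes at an unadjusted p under 0.05. The difference between the drugs was lost without any 1 of 13 mice and kept without olanzapine M9 or risperidone M4 or M5 (1.76 to 2.35 over all 16, adjusted p up to 0.117). Mean Nr1d1 levels were 10.58 in males and 10.91 in females under olanzapine, 9.565 in males and 7.78 in females under risperidone, and 9.89 in males and 10.55 in females under vehicle. The effect of risperidone was 2.44 higher in males than in females, which did not pass (standard error 0.676, limma adjusted p = 0.711).

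The Per genes, Cry1 and Ciart had negative log2 fold changes under olanzapine in the liver that did not pass. Per2 levels were 6.65, 7.55 and 7.93 under olanzapine, 7.76, 8.50 and 9.03 under risperidone, and 7.22, 8.675 and 9.04 under vehicle, and 6 of 8 olanzapine-treated mice lay below every risperidone-treated mouse. The log2 fold changes of Per2 were -0.99 against vehicle (standard error 0.234, limma adjusted p = 0.247) and -0.96 against risperidone (limma adjusted p = 0.135). Without vehicle F1, the lowest Per2 of its group, Per2 was called against vehicle (-1.17, limma adjusted p = 0.0234). Against vehicle, Per3 had a log2 fold change of -0.86, Per1 of -0.46 and Cry1 of -0.45, and Ciart had one of -1.09 against risperidone. Mean Per3 levels were 7.72 in males and 9.05 in females under olanzapine, and 9.27 and 9.215 under vehicle. In the same order, those of Per1 were 7.12, 8.06, 7.955 and 8.15. Those of Per2 were 7.26, 7.66, 8.87 and 8.03, and those of Cry1 were 7.325, 7.34, 7.97 and 7.59. The differences from vehicle were thus larger in males, but a difference between the sexes passed for 0 members by limma. In all, 5 members had an unadjusted p under 0.05 under olanzapine against vehicle (of 1279 genes) and 5 against risperidone (of 1514 genes), and 9 of 10 were negative in each.

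**Figure D2:**
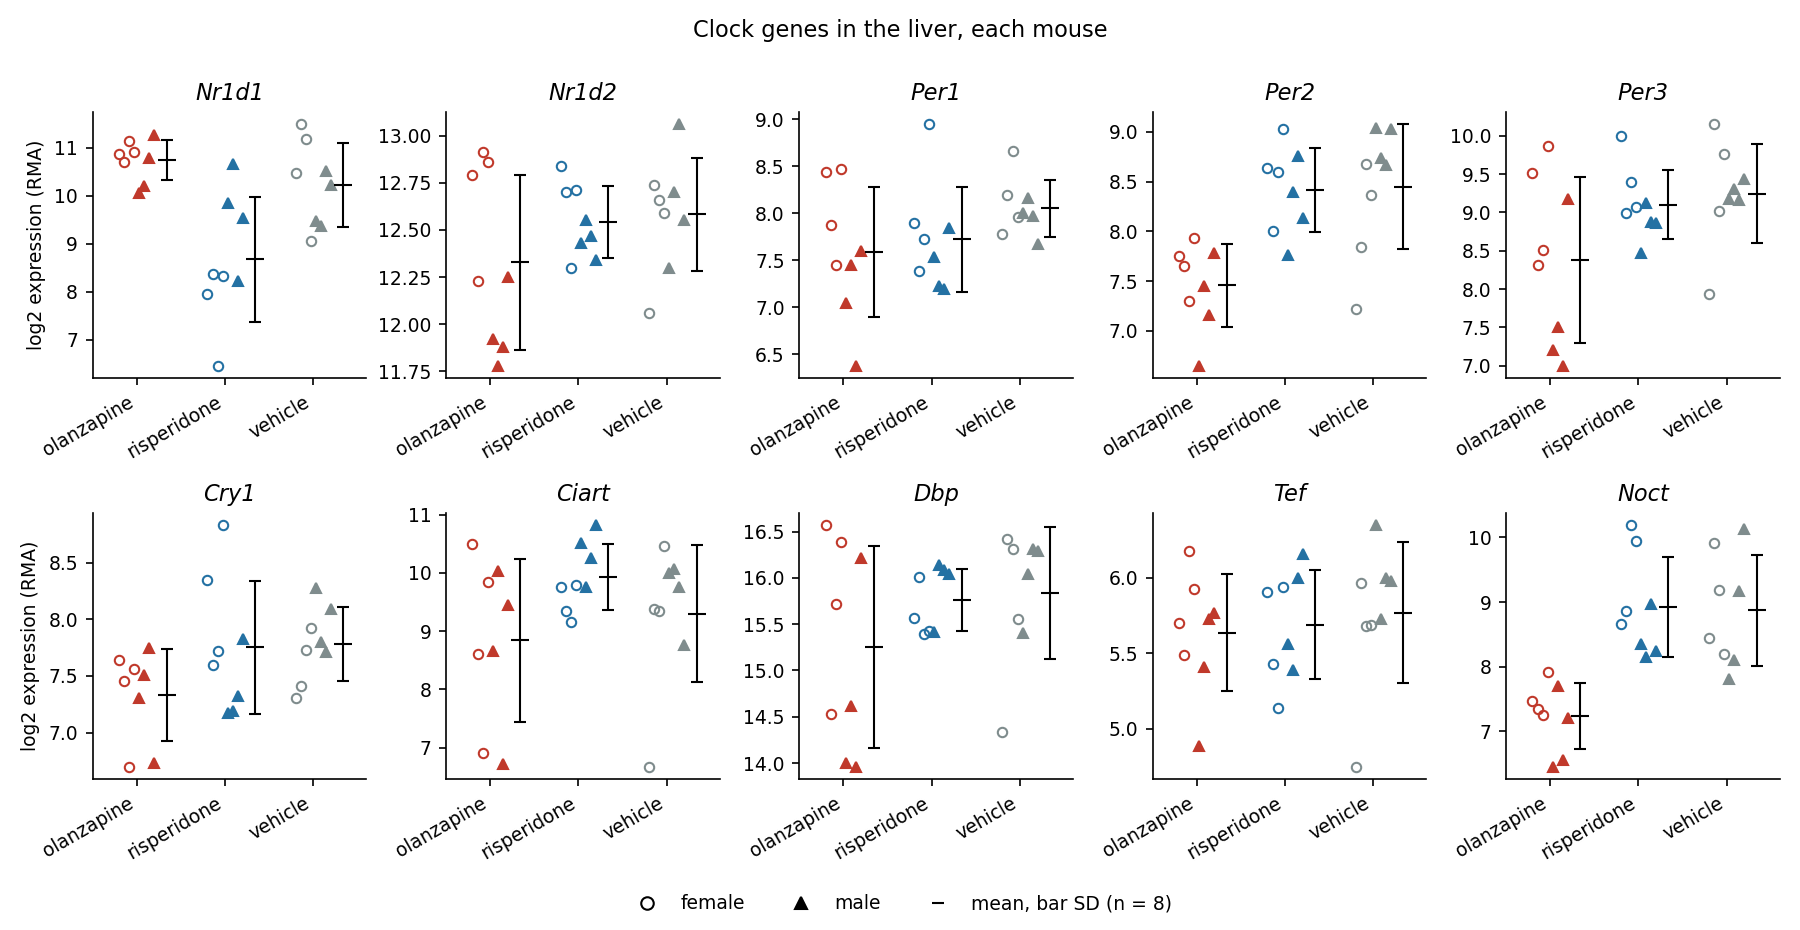
Log2 expression of the 10 clock genes in the liver, 1 point per mouse (circles females, triangles males), with the mean and SD of 8 mice beside each group on the x axis. The olanzapine points of Noct lie below the risperidone points, the risperidone points of Nr1d1 spread from 6.46 to 10.66, and the olanzapine points of Dbp fall into a low and a high set.

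Dbp in the liver was spread widely under olanzapine. Its levels were 13.96 to 14.62 in 4 olanzapine-treated mice (F9, M9, M25 and M26) and 15.72 to 16.57 in the other 4, against 15.39 to 16.14 under risperidone and 15.41 to 16.42 under vehicle, apart from vehicle F1 at 14.33. Vehicle F1, with the lowest Dbp of its group, was also the lowest of its group for Ciart (6.67), Tef (4.75), Per3 (7.93) and Per2 (7.22). The same held for Nr1d2 (12.06) and Cry1 (7.31), but not for Nr1d1, Per1 or Noct. Without vehicle F1 and olanzapine M9, the livers least like the rest, an alternative chosen after seeing the data, 2 members were called against vehicle (Noct and Per2) and 2 against risperidone. Hepatocyte markers were at 19.2 to 19.5 in every group (mean of 5 genes).

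The other clock genes of the liver did not pass by limma. Arntl, the activator that NR1D1 represses, had log2 fold changes of 0.73 against vehicle (limma adjusted p = 0.676) and 0.86 against risperidone (limma adjusted p = 0.438). Of 7 clock outputs 0 were called against risperidone and 4 had an unadjusted p under 0.05, as did 7.76% of all genes. These 4 were all negative: Usp2, a deubiquitinase (-1.82), Wee1, a cell cycle kinase (-1.43), Alas1, which starts heme synthesis (-0.88), and Lonrf3 (-0.76). The others, Upp2, Cyp2a5 and Tfrc, did not pass that cut.

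In the adipose tissue 0 members were called in any of the 3 comparisons by limma, as were 0% of genes. At an unadjusted p under 0.05 there were 4 members (of 1800 genes) for olanzapine against risperidone, 0 (of 1064 genes) for olanzapine against vehicle and 3 (of 1761 genes) for risperidone against vehicle. Nr1d1 levels were 9.76, 10.605 and 12.02 under olanzapine, 8.29, 9.015 and 10.09 under risperidone, and 9.47, 10.065 and 11.79 under vehicle. The risperidone-treated mice were the lowest, 6 of 8 below every vehicle-treated mouse, with log2 fold changes of 1.63 for olanzapine against risperidone (standard error 0.376, limma adjusted p = 0.276) and -1.20 for risperidone against vehicle (limma adjusted p = 0.453). Dbp levels were 14.02, 15.225 and 15.92 under olanzapine, 12.67, 14.095 and 15.63 under risperidone, and 13.81, 15.12 and 16.28 under vehicle. Its log2 fold changes were 1.04 (limma adjusted p = 0.382) and -1.06 (limma adjusted p = 0.476) in the same comparisons, those of Nr1d2 0.62 and -0.46, and that of Tef 0.46 for olanzapine against risperidone.

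Markers of the cells in the adipose samples were read in the same groups, and 0 of them were called by limma. The mean level of 5 adipocyte markers ranged from 11.5 to 13.7 under olanzapine, 9.85 to 13.4 under risperidone and 12.1 to 13.9 under vehicle, and 4 of 5 (olanzapine against risperidone) and 3 of 5 (risperidone against vehicle) had an unadjusted p under 0.05. That of 3 markers of male genital tract epithelium ranged from 6.91 to 11.4 under olanzapine, 7.07 to 19.1 under risperidone and 7.27 to 9.90 under vehicle. With the adipocyte markers as a covariate, the log2 fold change of Nr1d1 was 1.05 for olanzapine against risperidone and -0.68 for risperidone against vehicle, and that of Dbp was 0.22 and -0.34. Without risperidone M4 and M5, the adipose samples least like the rest, Nr1d1 had 1.59 and -1.16, and 0 members were called by limma.

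In the pancreas 0 members were called in any of the 3 comparisons by limma, as were 0% of genes, with 1 member (of 784 genes) for olanzapine against risperidone, 1 (of 1607 genes) for olanzapine against vehicle and 0 (of 632 genes) for risperidone against vehicle at an unadjusted p under 0.05. That member was Dbp, at 5.45, 9.24 and 10.09 under olanzapine, 9.48, 11.125 and 13.27 under risperidone, and 7.98, 11.575 and 13.76 under vehicle. Its 24 samples spanned 8.31 on the log2 scale, against 1.01 in the striatum. The log2 fold changes were -2.56 for olanzapine against risperidone (standard error 0.786, limma adjusted p = 0.998) and -2.43 against vehicle (limma adjusted p = 0.572). Ciart had a log2 fold change of 0.69 against vehicle (limma adjusted p = 0.614), and the other 8 members lay between -0.51 and 0.01 in this comparison. Acinar markers, which define most of this tissue, ranged in mean level from 10.4 to 18.5 under olanzapine, 11.7 to 18.3 under risperidone and 11.4 to 18.6 under vehicle, so the samples held unequal amounts of acinar RNA. With these markers as a covariate the log2 fold changes of Dbp were -2.40 and -2.43. Hepatocyte markers were not in this covariate. In the pancreas their highest mean level was 9.654 under olanzapine, 15.548 under risperidone and 13.372 under vehicle. The medians were 8.271, 7.725 and 8.035 in the same order, so the groups differed in their highest samples. The part of hepatocyte RNA in the Dbp differences was not tested.

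**Figure D3:**
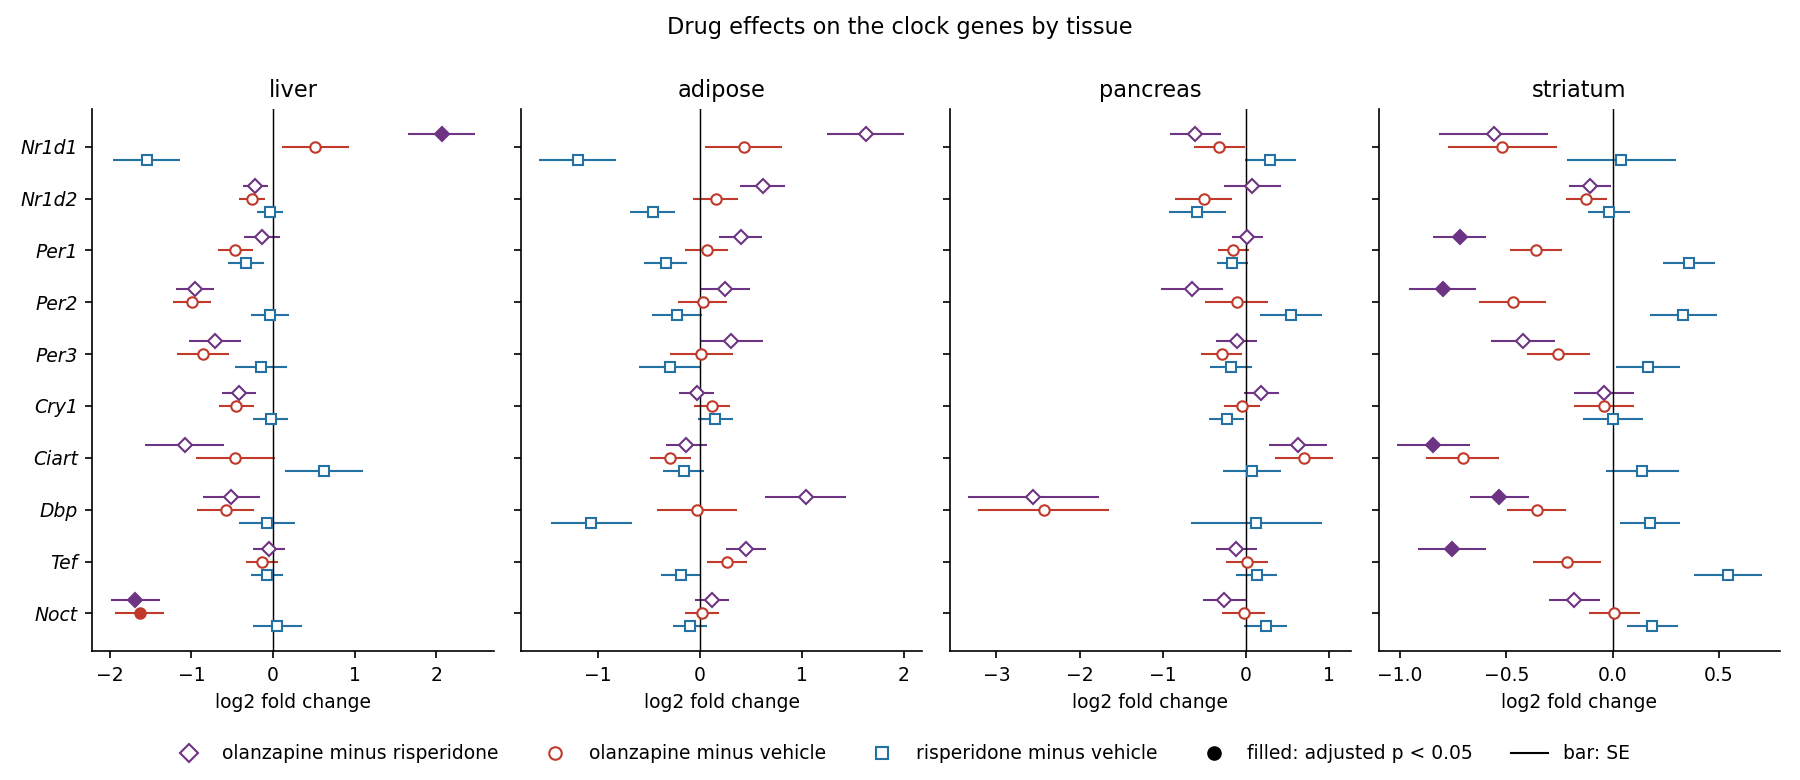
Log2 fold changes (x axis) with standard errors of the 10 clock genes (y axis) in each tissue, for olanzapine minus risperidone, olanzapine minus vehicle and risperidone minus vehicle. Filled markers have an adjusted p under 0.05: 5 members in the striatum and Noct and Nr1d1 in the liver.

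The difference between olanzapine and risperidone was then compared between tissues by limma, a contrast chosen after seeing the data. For Nr1d1 it was 2.63 higher in the liver than in the striatum (standard error 0.512, limma adjusted p = 0.00982) and 2.19 higher in the adipose tissue than in the striatum (standard error 0.471, limma adjusted p = 0.0178). For Noct it was -1.81 in the liver relative to the adipose tissue (standard error 0.366, limma adjusted p = 0.0399) and -1.51 relative to the striatum (standard error 0.341, limma adjusted p = 0.0183). For Per1 and Tef it was 1.12 and 1.21 higher in the adipose tissue than in the striatum (limma adjusted p = 0.0197 and 0.0174). Among all genes, 0.0359% were called between liver and adipose tissue, 1.84% between liver and striatum, 0.866% between adipose tissue and striatum, 0.0256% between pancreas and striatum and 0% in the other pairs. In the 3 pairs that include the pancreas 0 members were called by limma, with 4 members (and 4.31% of all genes) at an unadjusted p under 0.05 against the liver, 2 (7.19%) against the adipose tissue and 4 (9.55%) against the striatum. With each mouse as a block, the counts of members called were the same (1 between liver and adipose tissue, 2 between liver and striatum, 3 between adipose tissue and striatum) and held the same genes.

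Females and males and the mouse numbers of the labels (1 to 9 and 19 to 27, of unstated meaning) were compared over 24 mice per tissue. Between males and females 0 members were called by limma in any tissue, while 6.23% of genes were called in the liver, 4.6% in the adipose tissue, 0.108% in the pancreas and 0.39% in the striatum, with 17.5%, 17.0%, 4.25% and 7.01% of genes at an unadjusted p under 0.05. At that cut there were 3 members in the liver, 2 in the adipose tissue, 1 in the pancreas and 3 in the striatum, so the liver and adipose counts lay near the share of all genes. Per1 in the liver was nearest, with -0.56 in males relative to females (limma adjusted p = 0.0568). Of the other clock genes, Bhlhe41, a repressor of the activators, was 1.73 higher in male livers (limma adjusted p = 1.96e-07). Between the number ranges 0 members were called by limma, while 0.666% of genes were called in the liver, 0.631% in the striatum and 0% elsewhere, and at an unadjusted p under 0.05 there were 1 member in the liver (14.4% of genes), 2 in the striatum (11.8%) and 0 in the adipose tissue (4.36%) and pancreas (6.87%). A difference of a drug's effect between the sexes passed for no member by limma, where 0.0513% of genes were called for risperidone in the adipose tissue and 0% in every other case. At an unadjusted p under 0.05, liver samples gave 5 members for olanzapine (5.41% of all genes) and 3 for risperidone (4.78%). Adipose samples gave 0 for olanzapine (2.54%) and 4 for risperidone (13.2%), pancreas samples gave 1 for olanzapine (4.03%) and 1 for risperidone (4.96%), and striatal samples gave 0 for either drug (6.01% and 5.78%).

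Whether tissues of a mouse went together was examined by correlating each member between tissues over 24 mice, after removal of treatment and sex. Of 60 relations, 43 were positive, 0 passed in limma over all genes and 4 had an unadjusted p under 0.05. These regressions called 0% of genes in 58 cases and 0.00513% in 2. The median r of the members between liver and adipose tissue was 0.269 with 9 of 10 positive, against a median of -0.000341 over all genes. It was 0.171 between adipose tissue and striatum (9 of 10), 0.137 between pancreas and striatum (9 of 10), 0.083 between liver and striatum (5 of 10), 0.0805 between adipose tissue and pancreas (6 of 10) and 0.0245 between liver and pancreas (5 of 10). All-gene medians of these 5 pairs lay between -0.00286 and 0.0275. The members share each array and each sample's cell content, so they are not independent points.

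Nr1d2 had the highest of these correlations, between liver and adipose tissue (r = 0.511, permutation p = 0.00668; rho = 0.457, permutation p = 0.0161; limma adjusted p = 0.604), and r was 0.449 without the 2 most distant mice. Per3 (r = 0.491, permutation p = 0.0272; rho = 0.424, permutation p = 0.0566; limma adjusted p = 0.413) and Tef (r = 0.463, permutation p = 0.0215; rho = 0.453, permutation p = 0.0457; limma adjusted p = 0.908) came next, with r of 0.348 and 0.304 without the 2 most distant mice. Dbp was positive in all 6 pairs of tissues, from 0.246 to 0.390. Noct ran the other way between liver and striatum (r = -0.486, permutation p = 0.0657; rho = -0.469, permutation p = 0.0583; limma adjusted p = 0.911), and r was -0.803 within vehicle, 0.256 within olanzapine and 0.169 within risperidone, so the relation was not shared by the groups.

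The mean of Nr1d1, Nr1d2, Per3, Dbp, Tef and Ciart after removal of treatment and sex gave 1 value per mouse and tissue. These 6 members were chosen with earlier results known, and the 4 left out (Per1, Per2, Cry1 and Noct) held 9 of the 17 negative relations above. Its r was 0.412 between liver and adipose tissue, 0.353 between adipose tissue and striatum, 0.352 between adipose tissue and pancreas, 0.294 between pancreas and striatum, 0.0126 between liver and pancreas and -0.0119 between liver and striatum. With all 10 members in the mean, chosen after seeing the data, r was 0.332 between liver and adipose tissue, 0.314 between adipose tissue and striatum, 0.434 between adipose tissue and pancreas, 0.322 between pancreas and striatum, 0.0458 between liver and pancreas and -0.289 between liver and striatum. The mean of the 6 members lay above 0 in all 4 tissues in 4 of 24 mice (olanzapine F25 and M27, risperidone F4 and M24) and below 0 in all 4 in 2 mice (olanzapine F9 and M26). With all 10 members these were again 4 and 2 mice, with vehicle M1 in place of olanzapine F25. The lowest liver value, -1.14 in vehicle F1, stood beside adipose and pancreas values below 0 and a striatal value just above it.

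**Figure D4:**
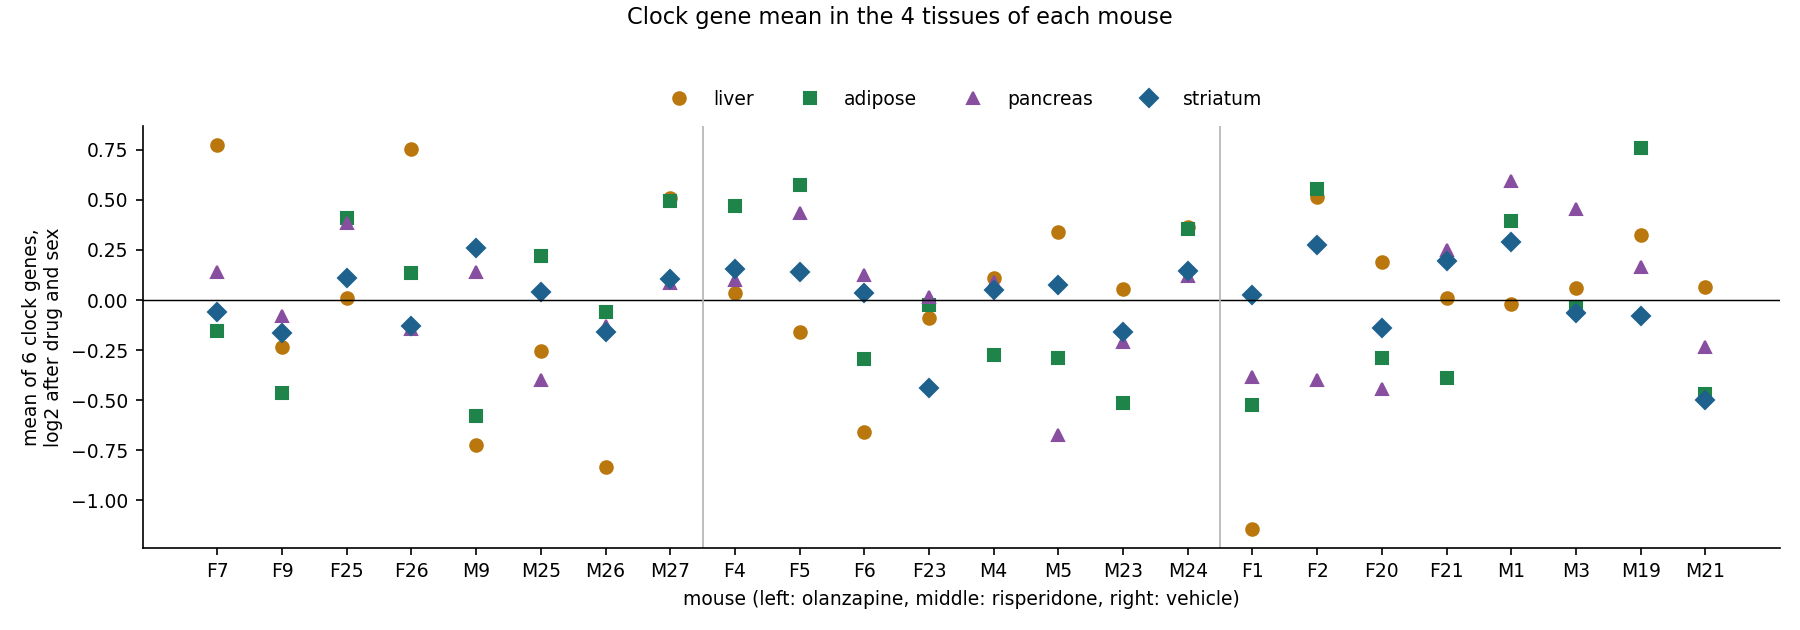
Mean of 6 clock genes after removal of treatment and sex (y axis, log2) in the 4 tissues of each mouse (x axis), with olanzapine-treated mice left, risperidone-treated mice in the middle and vehicle-treated mice right. The tissues of most mice lie on both sides of 0, while 4 mice lie above and 2 below 0 in all tissues.

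Within a tissue, the 45 pairs of members had a median r of 0.351 in the liver (39 positive), 0.391 in the adipose tissue (35 positive), 0.263 in the striatum (32 positive) and -0.015 in the pancreas (22 positive). Regressed on Dbp over all genes, 4 of 36 relations passed in limma, 1 in the liver (0.174% of genes called), 3 in the adipose tissue (5.03% called), 0 in the pancreas (4.09% called) and 0 in the striatum (0% called), and 14 had an unadjusted p under 0.05. Per3 had an r with Dbp of 0.833 in the liver (rho = 0.783, permutation p = 0.00259 and 0.00303, limma adjusted p = 0.00119). In the adipose tissue r was 0.847 (rho = 0.851, limma adjusted p = 0.00076), with a permutation p of 1e-05 for both, the smallest the permutations can give. Without the 2 most distant mice r was 0.738 and 0.814. It was 0.0231 in the pancreas and 0.252 in the striatum, where limma adjusted p was 0.971 and 0.807.

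Within the treatments, r of Per3 with Dbp was 0.942 under olanzapine, 0.182 under risperidone and 0.743 under vehicle in the liver. In the adipose tissue it was 0.955 under olanzapine, 0.827 under risperidone and 0.923 under vehicle. The risperidone-treated livers covered the narrowest span of Dbp. In the adipose tissue Nr1d2 (r = 0.70, rho = 0.744, permutation p = 2e-05 and 1e-05; limma adjusted p = 0.0189) and Nr1d1 (r = 0.606, rho = 0.511, permutation p = 0.00132 and 0.00947; limma adjusted p = 0.0414) also followed Dbp, with r of 0.64 for Nr1d2 and 0.7145 for Nr1d1 without the 2 most distant mice. In the liver Nr1d2 did not pass (r = 0.788, limma adjusted p = 0.0514). Adipocyte content varied among the adipose samples as given above, and its part in these relations was not tested.

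**Figure D5:**
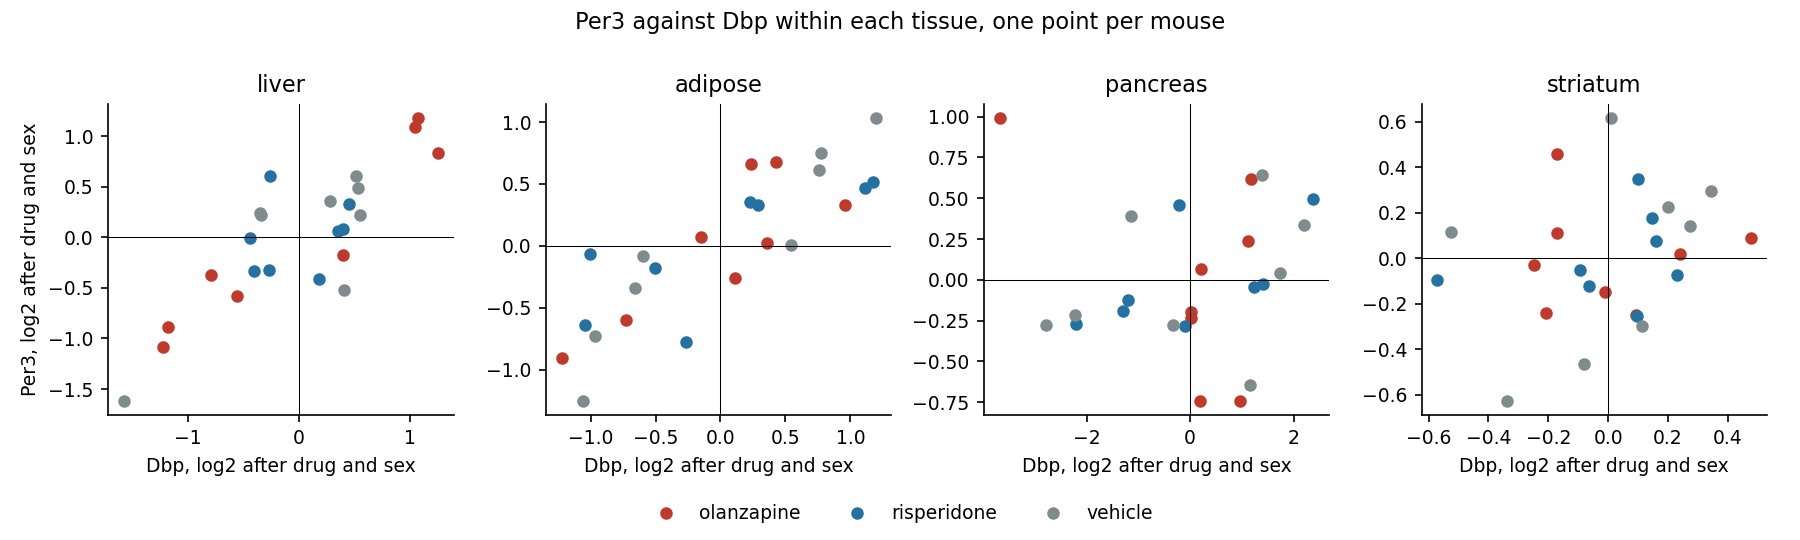
Per3 (y axis) against Dbp (x axis) after removal of treatment and sex, log2, 1 point per mouse, colored by treatment, in each tissue. The points rise together in liver (r = 0.833) and adipose tissue (r = 0.847) and scatter in the pancreas (r = 0.0231) and striatum (r = 0.252).

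Among the other 19495 genes, those whose levels followed the mean of the 6 clock genes most closely over the 4 tissues were Ldb1, Ptms, Abcd2, Plxnd1 and Smarcc2 (mean r from 0.596 to 0.566, 24 mice per tissue). In the pancreas their r was 0.255 to 0.458. Those that ran most against it were Hspa5, St8sia6, Slc41a2, Ptpn3 and Fam110a (mean r from -0.502 to -0.434). Both sets are the ends of a ranking on the same mice and were not tested against chance. Arntl, which NR1D1 and NR1D2 repress, had an r with this mean of -0.657 in livers and -0.704 in adipose samples, and of 0.0715 in the pancreas and 0.183 in the striatum. Its mean r was -0.277, at rank 455 from the lowest of the 19495 genes. In livers and adipose samples, r was -0.297 and 0.115 for Clock and 0.245 and -0.0414 for Npas2. It was 0.322 and 0.790 for Rora and 0.340 and 0.0419 for Rorb. The part of repression in these values was not tested.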

How the data were processed

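RNA of the 4 tissues was hybridised to Clariom S arrays, after labelling with the WT PLUS kit for striatum and liver and the Pico kit for pancreas and adipose tissue, so each tissue was fitted alone and levels were not set against each other between tissues. The log2 values were deposited by the authors after RMA (Affymetrix Expression Console 1.4 in the submitters' processing notes) with 2 decimals, and whether all 96 arrays were normalized together was not given in the sources used here. RMA pulls arrays to a shared distribution, so a shift of most genes would not be seen. Of 22206 transcript clusters, 19572 had 1 gene symbol and 2634 none; clusters of a gene were averaged, which gave 19505 genes.

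Treatment and sex were fitted with limma 3.58.1 in R 4.3.3 over the 24 mice of a tissue, at an adjusted p of 0.05, with no filter on dim genes. Relations between tissues and within a tissue were fitted with limma over all genes and tested with 100000 permutations within treatment and sex (two-sided). Scripts were tested on simulated data. For olanzapine against risperidone in the striatum, log2 fold changes of all members were written out. For the other comparisons and tissues only some members were written out, and the plot of log2 fold changes by tissue shows all of them. Drug differences of other clock genes were given for the striatum and the liver only. The members, the gene lists and the tests were chosen with earlier results of these data known. The comparison of olanzapine with risperidone between tissues, the relations to Dbp, the marker covariates, the mean over all 10 members and the fits without the 2 least similar arrays were chosen after seeing the data. Arrays with the same mouse number were taken as the same animal from the labels. The median correlation of their deviations over all genes was 0.0031 to 0.0252 between tissues, against -0.0016 to 0.0019 for different mice. The best match in the other tissue was the own mouse in 0 to 3 of 24 mice, so these values cannot verify the pairing. Alternatives are given in the closing section. The number of arrays limits the precision.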

Additional observations from a re-analysis of the deposited data

Results flagged for a closer look

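In 9 of 120 groups of 8 mice, 1 mouse lay farther from the rest than Dixon's limit, which chance gives in about 1 in 20 groups. In the liver these were vehicle F1 for Ciart (6.67, next 8.76) and Tef (4.75, next 5.68) and risperidone F23 for Per1 (8.95, next 7.90). In the pancreas olanzapine M25 was high for Ciart (9.64, next 8.17) and low for Dbp (5.45, next 8.35). In the striatum these were risperidone F23 for Dbp (16.60, next 17.04), olanzapine M9 (12.41, next 12.76) and risperidone F4 (13.27, next 12.98) for Nr1d2, and olanzapine M25 for Per2 (7.49, next 8.10). The cause was not tested.

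The difference between olanzapine and risperidone itself differed between tissues, by limma, for 4 members. It was 2.63 for Nr1d1 and -1.51 for Noct in the liver minus the striatum, -1.81 for Noct in the liver minus the adipose tissue, and 2.19 for Nr1d1, 1.12 for Per1 and 1.21 for Tef in the adipose tissue minus the striatum.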

How the results depend on the processing

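In the liver, olanzapine against risperidone gave 2 members called, against 1 in females alone, 0 in males alone, 0 without sex as a covariate, 0 with trended and robust variance, 1 with the hepatocyte markers as a covariate, 3 with only the 16 mice compared (with Per2 added), and 0 to 2 when 1 mouse was left out. Olanzapine against vehicle gave 1, against 0 with each array centred on its median, 0 in females alone, 0 without sex, 0 with only the 16 mice compared, 0 with trended and robust variance, 2 without the 2 least similar arrays, and 0 to 2 when 1 mouse was left out. Males alone gave 1 member there, Per2 in place of Noct. Risperidone against vehicle gave 0, against 1 in females alone (Nr1d1, -2.77, limma adjusted p = 0.0217). In the striatum, olanzapine against risperidone gave 5, against 2 in females alone, 0 in males alone, 0 with the projection neuron markers as a covariate, 7 with array weights (Nr1d1 and Per3 added), 6 with only the 16 mice compared and 6 with quantile normalization within the tissue (Per3 added in each), and 4 to 6 when 1 mouse was left out. There, olanzapine against vehicle gave 0, against 0 to 1 when 1 mouse was left out. Fits of 1 sex use fewer mice. Elsewhere the cause was not tested.

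Of the relations between tissues, r of Dbp was -0.0150 between adipose tissue and pancreas with nothing removed and -0.0490 between liver and pancreas within risperidone. That of Noct between liver and striatum was 0.00363 with nothing removed, 0.256 within olanzapine and 0.169 within risperidone. That of Per3 between liver and adipose tissue was -0.0584 within risperidone. With the replicate block (mouse), the members called between tissues numbered 1, 2 and 3 as without it, and genes called numbered 7 between liver and adipose tissue, 321 between liver and striatum and 91 between adipose tissue and striatum, against 7, 359 and 169 without the block. Within a tissue the groups held different mice, so no block applied there. Over all alternatives other than leaving out 1 mouse, 653 values were kept. For fold changes this means the same direction and side of the threshold, for correlations the same sign, and for counts a count close to that reported. Of the rest, 28 lost a call, 8 gained one, 15 counts moved and 6 values changed sign. The standard error of Dbp in the pancreas was 0.786, and its differences did not pass there.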
